A study of Mus musculus with 6 samples.

Results

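Cartilage-type matrix genes encode the proteins that fill the space around chondrocytes, and several are also known from the sclera, the fibrous coat of the eye that lies against the choroid. The 10 genes examined were Acan, Col9a1, Col9a2, Col9a3, Matn2, Matn3, Matn4, Comp, Hapln1 and Chad, and each of the 10 was found by its symbol among the 33924 genes of the deposited table. They were selected on their known role in cartilage and chosen by an earlier look at the authors' age contrast in the same table, so neither the list nor its direction with age is treated as evidence here. RPE/choroid, the retinal pigment epithelium (RPE) with the vascular layer beneath it, was scraped from the sclera of 3 young and 3 aged wild-type C57BL/6J mice, with the eyes of a mouse pooled into a sample, and was sequenced as poly(A)-enriched, rRNA-depleted libraries. Young mice were 1 to 2 months old by the labels and aged mice 20 to 24 months by the titles or 22 to 24 months by the age field. All mice are labelled male, whereas the study's methods describe both sexes and a slightly older young group.

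The value used is the authors' mean normalized count of each gene over the 6 libraries, young and aged together. The age contrast in the table is the authors' own and is not repeated here, and single mice cannot be seen behind a mean, so the levels have no SD, no test was run, and nothing is said about a difference between ages. Ratios between genes describe these means, and whether they exceed the spread between mice is not known. Genes were compared as the mean normalized count per kilobase of the longest annotated transcript, since in counts of reads a longer transcript weighs more. The authors' normalized counts were made from TPM, which is already corrected for length, and whether that correction remains in them is not known. If it does, each value per kilobase is divided by length a second time and the values as deposited are the ones to compare. Ratios that differ by over 1.5 times between the lengths used are therefore given with a further value, though not under each length. The reference set was the 17971 genes with a mean of at least 10 and a known length, whose median was 213 per kilobase. These are referred to as detected genes, and all 10 cartilage-type genes are among them.

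Aggrecan, encoded by Acan, is a very large proteoglycan that binds hyaluronan and holds water in cartilage, and the link protein encoded by Hapln1 locks it onto the hyaluronan chain. Type IX collagen is a heterotrimer of the chains encoded by Col9a1, Col9a2 and Col9a3 that decorates the surface of type II collagen fibrils, including those of the vitreous. The matrilins and cartilage oligomeric matrix protein (COMP, a member of the thrombospondin family) are adaptor proteins that bridge collagens and proteoglycans, and chondroadherin (Chad) is a leucine-rich protein that binds cells and collagen.

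The start regions of Col9a1, Col9a2 and Acan are shown as examples of genes at higher, middle and low levels among those with a window, and because Col9a1 has alternative starts that a mean per gene adds together. Col9a3, Comp and Matn2 have no window in the table used. The first Col9a1 start lies at position 24177610 of chromosome 1 (GRCm38, plus strand) and the second 17593 bases downstream, inside the gene. The windows hold 250 bases before and 50 bases from the start (RefSeq, GRCm38.p6). They lie at chr1:24177360-24177659 and chr1:24194953-24195252 for Col9a1, chr4:121039316-121039615 for Col9a2 and chr7:79052976-79053275 for Acan, all on the plus strand. These RefSeq starts differ in part from the GENCODE gene bounds given below. The Acan window ends before the GENCODE start of the gene, 79053483. The GENCODE start of Col9a2, 121039385, lies among the 250 bases before its RefSeq start. The letters and GC contents below thus belong to the RefSeq starts. Capitals mark matches on either strand to the TATA-box letters TATAAA, the GC-box letters GGGCGG or the SOX-type letters AACAAT.

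Col9a1 first start: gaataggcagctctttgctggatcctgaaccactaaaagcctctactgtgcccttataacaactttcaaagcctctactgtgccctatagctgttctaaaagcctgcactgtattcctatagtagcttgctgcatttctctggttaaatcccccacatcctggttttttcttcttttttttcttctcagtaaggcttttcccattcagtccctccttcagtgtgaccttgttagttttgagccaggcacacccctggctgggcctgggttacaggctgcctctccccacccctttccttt

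Col9a1 second start: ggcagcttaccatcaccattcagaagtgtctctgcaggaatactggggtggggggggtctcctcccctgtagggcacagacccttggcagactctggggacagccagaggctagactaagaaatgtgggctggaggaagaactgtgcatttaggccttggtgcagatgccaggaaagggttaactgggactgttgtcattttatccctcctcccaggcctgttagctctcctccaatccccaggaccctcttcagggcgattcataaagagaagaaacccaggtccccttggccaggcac

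Col9a2: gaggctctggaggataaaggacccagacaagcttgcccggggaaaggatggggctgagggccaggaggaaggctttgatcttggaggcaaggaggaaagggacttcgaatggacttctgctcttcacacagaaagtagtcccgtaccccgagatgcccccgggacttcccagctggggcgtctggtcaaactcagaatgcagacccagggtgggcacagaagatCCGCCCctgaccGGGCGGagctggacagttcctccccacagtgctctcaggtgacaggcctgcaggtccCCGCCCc

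Acan: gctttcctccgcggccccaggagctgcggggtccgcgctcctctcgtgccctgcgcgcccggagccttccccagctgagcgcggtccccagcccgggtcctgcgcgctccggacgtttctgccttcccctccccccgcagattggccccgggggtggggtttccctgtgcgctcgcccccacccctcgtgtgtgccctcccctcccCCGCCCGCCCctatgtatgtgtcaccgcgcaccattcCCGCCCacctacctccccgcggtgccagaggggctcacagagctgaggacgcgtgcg

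Neither Col9a1 window held any of these letters, while Col9a2 and Acan each held 3 GC-box matches, of which 2 overlap in Acan. The Acan window had a GC content of 74.0% and the Col9a2 window 61.7%, against 47.3% and 55.7% for the Col9a1 windows and a median of 52.7% over all 32851 windows. Of these windows 35.7% held GGGCGG, 13.6% TATAAA and 10.7% AACAAT. The table of windows covered 7 of the 10 genes with 9 windows, and 5 of the 9 held GGGCGG, 1 (Chad) held TATAAA and 0 held AACAAT. A match describes the letters and does not show that a factor binds there.

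The levels of the 10 genes differed widely. Col9a3 was the most abundant, with a mean normalized count of 21345 and 7007 per kilobase, and Acan the least abundant, with a mean of 43.1 and 5.87 per kilobase, a 1195-fold range per kilobase. The range was 495-fold as deposited and 2139.6-fold with the median transcript length. Between them stood, from high to low, Comp (1502 per kilobase), Col9a1 (870), Matn2 (739), Matn4 (289), Col9a2 (274), Matn3 (115), Chad (59.8) and Hapln1 (9.87). Per kilobase, 6 of the 10 genes were at or above the median of detected genes, and Matn3, Chad, Hapln1 and Acan were below it. The order of all 45 pairs was the same when coding length or no length was used, and 43 pairs kept it with the median transcript length. Matn4 and Col9a2 are the closest neighbours, with a ratio of 1.05, and they changed places with the median transcript length, as did Matn2 and Col9a2. The median transcript length of Col9a2 is only 752 bases, because noncoding transcripts of 492 and 752 bases are annotated beside its coding transcript of 2924. Both changes of place rest on these short transcripts. The Matn4 value also depends on the transcript chosen, because its longest annotated transcript, of 4113 bases, is a retained intron. With its longest coding transcript, of 2304 bases, Matn4 was at 515 per kilobase.

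**Figure D1:**
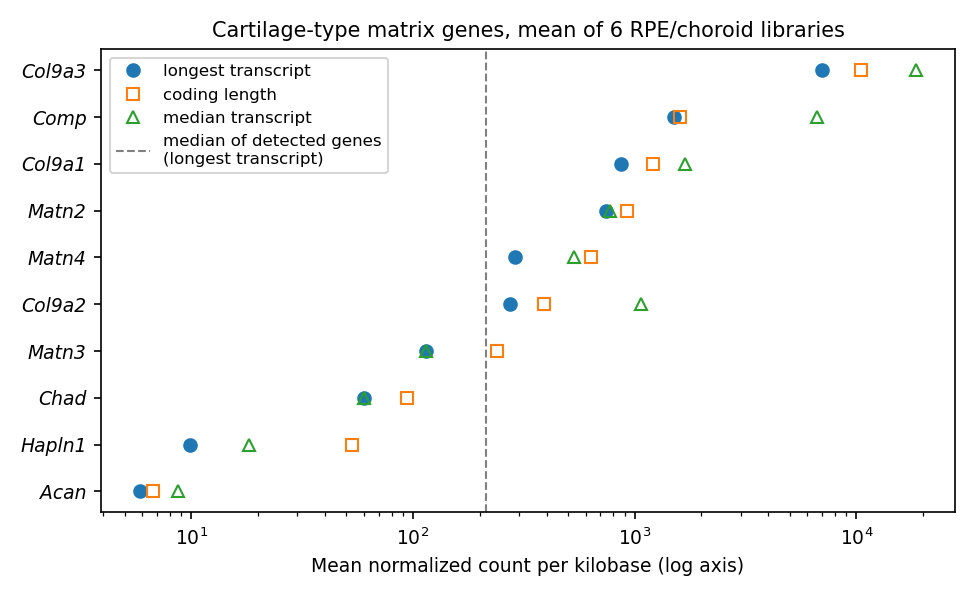
Mean normalized count per kilobase (log axis) of each of the 10 genes, divided by the length of the longest transcript (filled circles), the coding sequence (squares) or the median transcript (triangles); no error bars can be drawn because only the mean of 6 libraries is known. Col9a3 is at the top under each length and Acan at the bottom, and the dashed line is the median of detected genes, 213 per kilobase of the longest transcript.

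The 3 chains of type IX collagen were far from equal. Col9a3 (ENSMUSG00000027570, chromosome 2 of GRCm38 from 180597790 to 180622189, plus strand) was more abundant per kilobase than 97.1% of detected genes. Col9a1 (ENSMUSG00000026147, chromosome 1, 24177610 to 24252684, plus strand) had a mean normalized count of 3336 and was above 79.8% of detected genes. Col9a2 (ENSMUSG00000028626, chromosome 4, 121039385 to 121055322, plus strand) had a mean of 801 and was above 55.5%. Per kilobase, Col9a3 was 8.05 times as abundant as Col9a1 and 25.6 times as abundant as Col9a2, and Col9a1 was 3.18 times as abundant as Col9a2. Col9a3 alone made up 64.5% of the summed level of the 10 genes per kilobase. The order of the 3 chains was the same under each length used, and Col9a3 was 6.40 times Col9a1 as deposited and 8.66 times with coding length. With the median transcript length Col9a1 was 1.58 times Col9a2 and Col9a3 was 17.4 times Col9a2.

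The collagen that type IX coats in cartilage was low. Col2a1, which encodes type II collagen, had a mean normalized count of 154 and 30.2 per kilobase, above 17.3% of detected genes. Col9a3 was 232 times, Col9a1 28.8 times and Col9a2 9.06 times as abundant per kilobase as Col2a1. As deposited these ratios were 138, 21.6 and 5.19, and with the median transcript length 82.3, 7.48 and 4.72. Each chain was thus above Col2a1 under each length, while the size of the gap depended on it. The median transcript length of Col2a1 is 684.5 bases, far below its longest transcript of 5104. The type XI collagen genes, whose products copolymerize with type II, stood at 509 (Col11a1) and 122 (Col11a2) per kilobase, and Col10a1, a marker of hypertrophic cartilage, at 889. Col9a1 was 1.71 times Col11a1 per kilobase but 0.855 times as deposited and 0.912 times with the median transcript length, so the order of these genes rests on the length correction.

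Comp (ENSMUSG00000031849, chromosome 8, 70373558 to 70382066, plus strand) had a mean normalized count of 3630 and stood above 87.6% of detected genes per kilobase. Its relatives Thbs4 and Thbs1, the genes of thrombospondins that act in tendon and in angiogenesis, reached 4217 and 3032 per kilobase, 2.81 and 2.02 times the level of Comp. Under the median transcript length Thbs4 was 1.12 times Comp and Thbs1 was below it, at 0.824 times, and as deposited Thbs1 was 4.89 times Comp. Comp was 9.66 times as abundant per kilobase as Thbs3 and 5.78 times as deposited. Against Thbs2 it was 1.44 times as abundant per kilobase, 0.589 times as deposited and 4.25 times with the median transcript length. The median transcript length of Comp is only 548.5 bases, because short transcripts of 495, 522 and 575 bases are annotated beside the longest, of 2416. The ratios to Comp under the median transcript length rest on these short transcripts.

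The matrilins covered a wide range too. Matn2 (ENSMUSG00000022324, chromosome 15, 34306677 to 34436273, plus strand), a matrilin found well beyond cartilage, had a mean normalized count of 2643 and stood above 76.8% of detected genes per kilobase. Matn4 (ENSMUSG00000016995, chromosome 2, 164389393 to 164405160, minus strand), also broadly expressed, had a mean of 1187 and stood above 56.8%. Matn3 (ENSMUSG00000020583, chromosome 12, 8947929 to 8972028, plus strand), a matrilin of skeletal tissue, had a mean of 345 and stood above 37.1%. Per kilobase Matn2 was 2.56 times Matn4, or 1.43 times with the longest coding transcripts, and 6.45 times Matn3, or 3.85 times with coding length. Matn1, the matrilin first described in cartilage and not one of the 10 genes, had a mean normalized count of 0.650 and so fell short of the minimum of 10.

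Acan and Hapln1 stood together at the low end. Acan (ENSMUSG00000030607, chromosome 7, 79053483 to 79115099, plus strand) was above 2.98% of detected genes per kilobase, and Hapln1 (ENSMUSG00000021613, chromosome 13, 89539796 to 89611652, plus strand), with a mean normalized count of 56.4, above 6.33%. As deposited they were above 12.9% and 15.5% of detected genes. Hapln1 was 1.68 times Acan per kilobase of the longest transcript and 7.83 times per kilobase of coding sequence, as most of its longest transcript is not coding. The other hyalectans, large proteoglycans that bind hyaluronan as aggrecan does, differed from it in level. Bcan, the brain form, was 44.4 times and Vcan, which encodes versican, 12.8 times as abundant per kilobase as Acan, whereas Ncan, with 4.11 per kilobase, lay just below Acan, and above it with coding length. As deposited Bcan was 19.0 times and Vcan 21.7 times Acan, so the order of Bcan and Vcan turned, and with the median transcript length they were 92.5 and 47.4 times Acan. Among the link proteins Hapln3 was 6.07 times Hapln1 per kilobase, 3.57 times as deposited and 10.4 times with the median transcript length. Hapln2 and Hapln4 were lower than Hapln1, at 3.98 and 5.04 per kilobase. The mean normalized count of Hapln2, 9.32, fell short of the minimum of 10. The order of Hapln1 and Hapln4 turned with the median transcript length.

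Chad (ENSMUSG00000039084, chromosome 11, 94565047 to 94569127, plus strand) had a mean normalized count of 100.5 and stood above 26.6% of detected genes per kilobase. The 8 other leucine-rich matrix genes examined were all higher, from 355 (Prelp) to 18042 (Dcn) per kilobase. With its longest coding transcript, of 1758 bases, Dcn was at 48152 per kilobase. Lum, which encodes lumican, was 171 times and Kera, which encodes keratocan, 6.08 times as abundant as Chad per kilobase, and Lum was 264 times Chad with coding length. Chadl, the closest relative of Chad, was 1.51 times as abundant per kilobase and 2.95 times as deposited. Of the 10 cartilage-type genes Col9a3 came closest to Lum, at 0.686 times its level per kilobase, and this ratio exceeds 1 with the median transcript length.

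**Figure D2:**
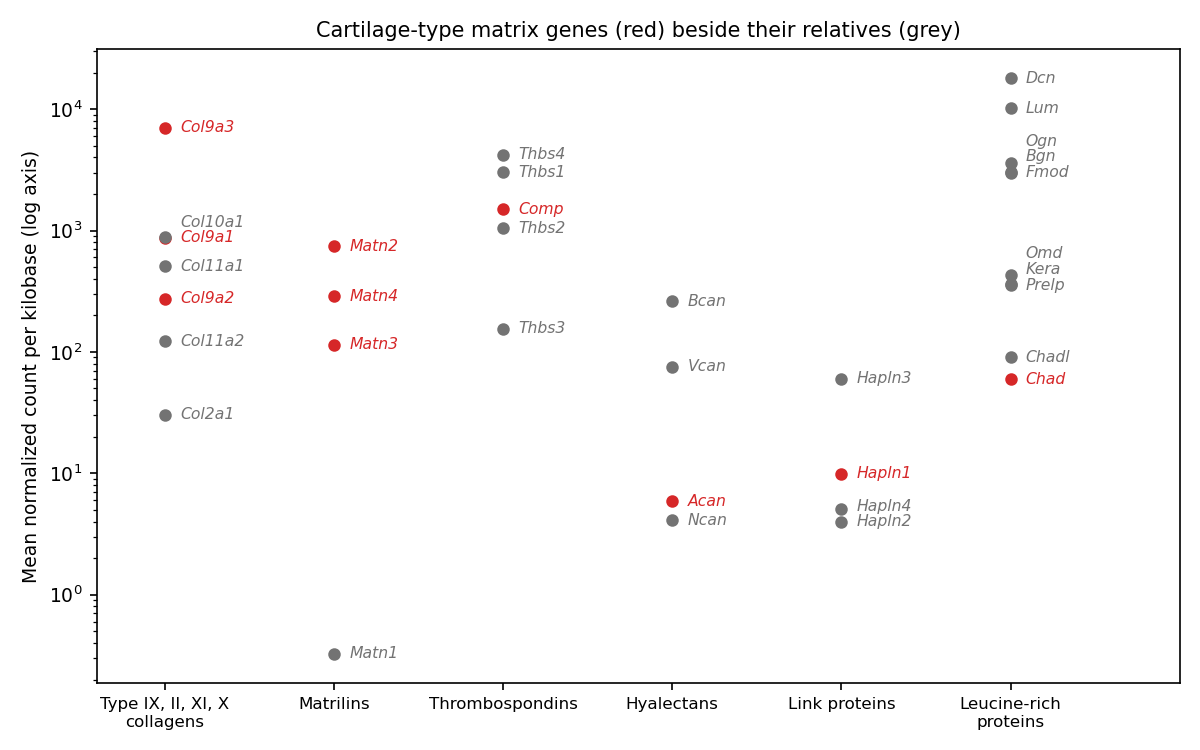
Mean normalized count per kilobase of the longest transcript (log axis) for the 10 genes (red) and their relatives (grey), in 6 families; each point is 1 gene and the mean of 6 libraries. Col9a3 stands above the other collagens shown, the 3 matrilins of the list stand far above Matn1, Acan lies above Ncan alone, and Chad is the lowest of its family.

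Of the 15 other cartilage matrix genes, 13 had a mean of at least 10. Per kilobase, 5 of these reached the median of detected genes. Of the 10 genes described above 6 reached it, and by definition the median divides the detected genes evenly. The median over the 15 genes was 122 per kilobase and over the 10 genes 281, beside 213 over detected genes. The 10 genes were chosen with the age contrast of the same data known, so nothing is concluded from their level beside that of the 15. The 5 of the 15 that reached the median were Col11a1, Col10a1, Cilp2 (511 per kilobase), Cytl1 (635) and Cnmd (293, listed as Lect1). Below the median per kilobase were Epyc (192), Mia (165, listed as Mia1), Cilp (118), Chadl (90.5), Prg4 (27.8) and Ucma (17.5), beside Col2a1 and Col11a2. As deposited, Cytl1 and Cnmd stood above only 47.6% and 40.5% of detected genes, and Col11a2 above 51.3%. Which of these genes reached the median therefore depended on the length correction. Snorc, listed as 3110079O15Rik, was listed at 0. Among 5 chondrocyte transcription factors Sox9 was the highest, at 228 per kilobase, followed by Sox6 (73.6), Sox5 (58.0), Runx2 (18.0) and Runx3 (8.10). Of 5 proteases known to cut aggrecan, Adamts1 was at 818 per kilobase and the other 4 were between 20.2 (Adamts4) and 101 (Adamts5). The hyaluronan synthase genes were at 2.98 (Has1), 27.9 (Has2) and 13.6 (Has3) per kilobase, and Cd44, the hyaluronan receptor, at 356.

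The tissue label was checked against marker genes. The RPE markers Ttr, Rgr, Rpe65, Rlbp1 and Lrat were between 9523 and 335233 per kilobase, while Best1, also an RPE gene, was at 39.3. Markers listed for other cell types were present in the same libraries. The 4 melanocyte markers are pigment genes, so they cannot tell melanocytes from the pigmented RPE. The 5 rod markers ranged from 4145 to 30177, the 4 skeletal muscle markers from 8136 to 39379, the 4 melanocyte markers from 4287 to 74294 and the 7 fibroblast markers, scleral fibroblasts included, from 364 to 18042 per kilobase. Lower medians were found for macrophage (1207), endothelium (1079), Schwann cell (520) and Mueller glia (480) markers. Of the 7 chondrocyte markers, 3 were above the median of detected genes per kilobase, namely Col10a1 (889 per kilobase), Cnmd (293) and Sox9 (228). As deposited, Col10a1 and Sox9 stood above 81.8% and 56.9% of detected genes, but Cnmd above only 40.5%. Col2a1 and Ucma were below the median of detected genes, Matn1 was near 0 and Snorc was listed at 0. The median of the 7 was 30.2 per kilobase. In bulk tissue, the number of cells of a type and the RNA of a gene per cell cannot be told apart, so the cells behind each level are not known, and the part of retained sclera or retina in these levels was not tested.

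**Figure D3:**
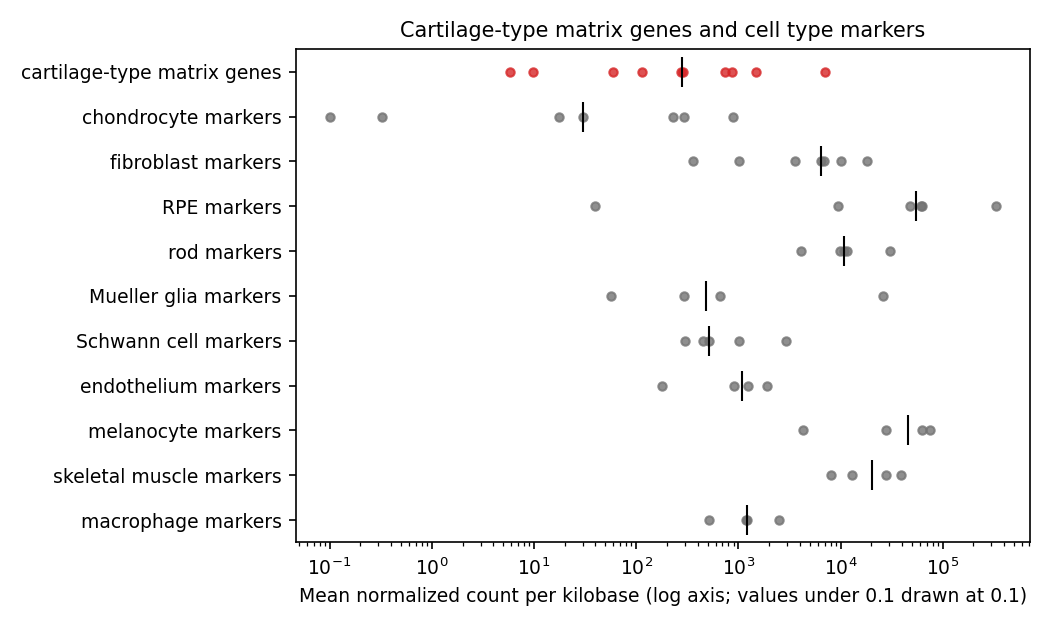
Mean normalized count per kilobase of the longest transcript (log axis) for the 10 cartilage-type genes (red) and for marker genes of 10 cell types (grey); each point is 1 gene and the black tick is the list's median. The medians of the RPE and melanocyte markers, 54535 and 45420, are the highest, and that of the chondrocyte markers, 30.2, is the lowest.

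The transcripts of the 10 genes are well separated from those of other genes. In 9 of the 10, each word of 50 bases of the longest transcript occurred in no other annotated gene, and in Hapln1 99.7% did. Exons of Col9a3, Matn2 and Matn4 overlap exons of a protein-coding gene on the opposite strand (Tcfl5, 9430069I07Rik and Rbpjl), and the library kit keeps the strand, although whether the quantification used it is not given in the sources used here. Together the 10 genes held 0.0820% of all mean normalized counts in the table, and the type IX chains made up 76.1% of that sum.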

How the data were processed

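RPE/choroid RNA of 3 young and 3 aged mice was sequenced as paired-end libraries. For the analysis, the authors trimmed reads with BBDuk, mapped them with STAR to Ensembl transcripts of GRCm38, quantified them with Sailfish as TPM, a transcript unit already corrected for length, turned these into normalized counts by the total count and ran DESeq2. The deposited signal used here is the mean normalized count per gene over all 6 libraries. The other 5 numeric columns hold the authors' own age contrast (log2 fold change, standard error, statistic, p-value and adjusted p-value) and were not used. Sequencing depth of single libraries is unknown, so no counting interval is given.

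Levels were divided by the longest transcript of GENCODE M21 (GRCm38), found by symbol or RefSeq synonym for 97.3% of the 18479 genes with a mean of at least 10. Across these genes level and length had a Spearman rho of 0.19, given as a description. Whether the correction for length that TPM carries is still in the deposited means is not given in the sources used here. If it is, division by length corrects a second time, and the values not divided by length apply. A run on simulated levels, multiplied and then divided by the same lengths, checked only that the calculation returns its input. It cannot show whether division by length suits the deposited means. Python 3.11.15, numpy 2.4.6, pandas 2.3.3, scipy 1.17.1 and matplotlib 3.10.9 were used. All 10 cartilage-type genes and each list of related or marker genes are named by rule. The genes and lists were chosen with earlier results of these data known.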

Additional observations from a re-analysis of the deposited data

How the results depend on the processing

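The order of the 10 genes kept 45 of 45 pairs with coding length, with no division by length and with the longest coding transcript (chosen after seeing the data), and 43 with the median transcript length. The number at or above the median of the reference genes was 6. It was 7 with all genes above 0, 6 with no division by length, 5 with coding length and 6 with the longest coding transcript. With a minimum of 50 it was 4, as Matn4 and Col9a2 fell below the higher median of that reference. Acan, below the median in the main setting already, drops out of that reference. The median percentile of the 10 genes, 56.2 among genes with a mean of at least 10, was 67.3 among genes above 0 and 48.9 with a minimum of 50, by construction of the reference. Of 35 log2 ratios between genes, 2 turned with no division by length, Col9a1/Col11a1 (-0.23) and Comp/Thbs2 (-0.76). With coding length 2 turned, Comp/Thbs2 (-0.13) and Acan/Ncan (-0.21). With the median transcript length 5 turned, Col9a1/Col11a1 (-0.13), Thbs1/Comp (-0.28), Hapln1/Hapln4 (-1.003), Matn4/Col9a2 (-1.01) and Col9a3/Lum (0.86). The longest coding transcript turned none of the 35.

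The young and aged mice are separate animals with no pairing in the labels, so neither a paired analysis nor a replicate block applied. Only means over all libraries are given, so the fits without each replicate were not run. Counts of single libraries could not be solved from the means. A rough estimate at the printed digits, with size factors taken as near 1, gave the expected number of fitting sets of counts. It was about 581 for the mean of Acan, the lowest of the 10 genes, and more for the others.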
